A study of Mus musculus with 34 samples.

Results

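Olfactory receptor genes were counted in bulk RNA from the dorsal hippocampus of mice, and 275 of the 1407 olfactory receptor genes in the count table were described here. A gene was taken as an olfactory receptor gene when its GENCODE M21 symbol began with Olfr, and it was kept when its counts summed over the 8 libraries reached 20. The kept genes were thus chosen by their own counts, pooled over both groups, so that detection is given below as a description. All 8 mice were adult male C57BL/6J animals of 2 to 3 months. The SOR group was trained in spatial object recognition, in which mice first explored an open field and then objects placed in it, and was euthanized 1 h after training (n = 4). The homecage group stayed in the cage and was euthanized at the same time (n = 4). Each library came from the whole dorsal hippocampus of 1 mouse, so that fewer expressing cells and less RNA per cell cannot be told apart. Libraries are named HC1 to HC4 and SOR1 to SOR4 after their group and replicate number.

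Olfactory receptors are G protein-coupled receptors of the sensory neurons in the nose. A mature olfactory sensory neuron expresses a single receptor gene, and binding of an odorant opens a cyclic nucleotide-gated channel through the G protein Golf and adenylate cyclase 3. The mouse genome holds these genes in large clusters, in which a short intronless coding sequence usually follows non-coding upstream exons. Transcripts of olfactory receptor genes have also been found outside the nose, at low levels. The comparison of SOR with homecage mice asks which transcripts differ in the hippocampus shortly after learning.

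The 8 libraries held 51406011 to 81525977 estimated counts, and the 275 genes took between 0.0842% and 0.11% of them. Markers of hippocampal subfields were read beside the tissue label, as a description without another tissue for comparison. Summed levels of the dentate granule markers *Prox1*, *C1ql2* and *Dsp* lay between 197 and 257 CPM (counts per 1000000) over all libraries, those of the CA1 markers *Fibcd1*, *Wfs1* and *Pou3f1* between 149 and 175 CPM, and those of the CA3 markers *Grik4*, *Bok* and *Iyd* between 60.7 and 70.4 CPM. CPM is given throughout on library sizes scaled by upper-quartile factors.

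Most olfactory receptor genes were not seen. Of the 1407 genes, 859 (61.1%) were at 0 in every library, 273 had a count above 0 but under 20 in sum, and 275 (19.5%) reached the threshold. Among the 53125 other genes of the table, 49.2% reached it. Genes annotated as protein coding made up 268 of the 275, out of 1135 in the family, whereas only 7 of the 272 receptor pseudogenes were kept. The kept genes lay on 17 chromosomes. The cluster-rich chromosome 7 held 73 of them among its 293 receptor genes, chromosome 2 held 59 of 370, chromosome 9 held 29 of 173 and chromosome 11 held 20 of 104.

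**Figure D1:**
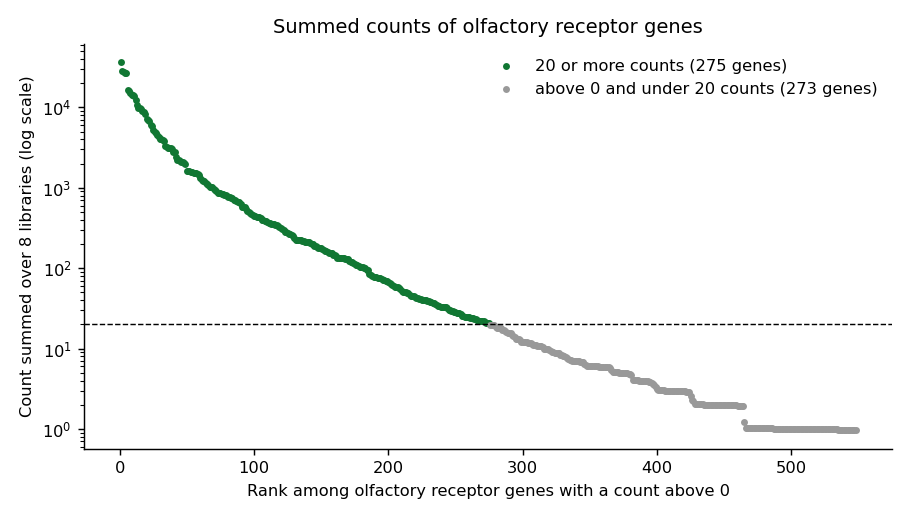
Counts summed over the 8 libraries (vertical axis, log scale) against rank, for the 548 olfactory receptor genes with a count above 0; each point is 1 gene. The curve falls from 36352 counts for Olfr1336 through the threshold of 20 (dashed line) without a step, with 275 genes above and 273 below it.

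Few genes carried most of the receptor counts. The 275 genes summed to 500696 counts, of which the 5 highest genes held 29.2%, the 10 highest 44.4% and the 50 highest 86%. Half-way in the ranking the summed count was 214 (quartiles 58.3 and 1001). In all, 183 genes had 100 counts or more, 69 had 1000 or more and 13 had 10000 or more. Expressed as a level, 95 of the 275 genes reached a mean of 1 CPM over the 8 libraries, and the median level was 0.429 CPM. Per kilobase of exon, the median level was 0.117 CPM, against 1.94 CPM for the 22006 annotated genes that entered the group test. Those genes had passed a filter on low counts, which 92 of the 275 had not, so the sets are unlike.

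The gene with the highest sum was *Olfr1336* (ENSMUSG00000048620), which spans chr7:6456168-6466817 on the plus strand of GRCm38 and has 6882 exonic bases, 36352 counts and a level of 10.4 CPM per kilobase. Its level was 81.2, 71.1, 71.5 and 70.8 CPM in HC1 to HC4, and 63, 76.6, 78.5 and 60.8 CPM in SOR1 to SOR4. SOR1 and SOR4 were the lowest libraries, HC1 was the highest, and the groups overlapped. *Olfr1307* on chromosome 2 followed with 28721 counts (HC1 to HC4 64.4, 55.1, 53.2 and 56.3 CPM, SOR1 to SOR4 48.4, 63.3, 64.4 and 48.5 CPM). *Olfr46* on chromosome 7 had 27590 counts (HC1 to HC4 58.1, 53, 51.2 and 55.5 CPM, SOR1 to SOR4 45.6, 65.1, 60.7 and 46.4 CPM). In these 2 genes as well, SOR1 and SOR4 were the lowest libraries. The other genes among the 10 highest were *Olfr365*, *Olfr639*, *Olfr539*, *Olfr986*, *Olfr635*, *Olfr1247* and *Olfr90*, with means of 28.4 to 54.7 CPM in the homecage group and of 27.7 to 50.8 CPM after SOR.

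At the threshold itself the values were a handful of reads. The genes just inside it were *Olfr553* (20.6 counts in sum), *Olfr105-ps* (20.7) and *Olfr66* (20.9), and the genes just outside it were *Olfr1432* (19.9), *Olfr1246* (19.7) and *Olfr822* (19.5). *Olfr553* had 0, 9.11, 2.74 and 3.42 counts in HC1 to HC4 and 2.71, 0.85, 0.86 and 0.86 counts in SOR1 to SOR4, so that HC2 gave 44.3% of its sum. *Olfr1432* had 1.92, 2.01, 1.04 and 5.9 counts in HC1 to HC4 and 4.1, 1.95, 2.94 and 0 counts in SOR1 to SOR4. Genes on both sides of the line were thus alike in depth, and 62 of the 275 genes had under 50 counts in sum.

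Detection was broad over the libraries once a gene passed the threshold. A count above 0 was found in all 8 libraries for 240 genes, in 7 for 23, in 6 for 5, in 5 for 6 and in 4 for 1 gene, and no gene was at 0 in every library of a group. Each library held between 259 and 273 of the 275 genes. The fewest were in SOR4, the shallowest library, and the next fewest (265) in SOR1, the deepest SOR library. Other genes of the same depth were seen about as widely. With summed counts from 20 to under 100, 65.2% of 92 receptor genes and 68.3% of 4899 other genes were seen in all 8 libraries, and from 100 to under 1000 these shares were 97.4% of 114 and 98.1% of 6841.

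Scatter between libraries was compared with counting error by the chi-square per degree of freedom of a gene's 8 counts, which is 1 when library size and chance alone set them. Its median was 1.79 for the receptor genes under 100 counts (other genes 1.91), 1.99 from 100 to under 1000 (other genes 2.49) and 5.85 from 1000 upward (other genes 7.22). The highest receptor genes thus varied far beyond counting error, as other genes of their depth did. Of the values above 0, 99% in the receptor genes and 98% in the whole table were not whole numbers, so decimals were no mark of the receptor genes.

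A few thin genes rested on 1 library. In 4 genes more than 50% of the counts came from a single mouse, and all 4 had under 100 counts in sum, where this held for 4.35% of receptor genes and 2.74% of other genes. *Olfr570* had 23.7 of its 43 counts in SOR1, and 0 in HC2, HC3 and SOR4. *Olfr288*, whose exons share 1774 of 2569 bases with *Gm44579* on the same strand, had 13.7 of its 25.3 counts in HC1 and 0 in 4 libraries. *Olfr220* had 12.1 of its 22 counts in HC4, and *Olfr1512* had 16.3 of its 32 counts in HC1. *Olfr1347*, of whose exonic words 26.3% stood in the transcript of *Olfr1348*, came next, with 11.1 of its 22.4 counts in SOR1. HC1, HC4 and SOR1 were the libraries that led in these 5 genes.

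The abundant receptor genes varied together from mouse to mouse. Summed over the 275 genes, the level was 1105, 982, 974 and 975 CPM in HC1 to HC4 and 866, 1071, 1080 and 850 CPM in SOR1 to SOR4. HC1, SOR2 and SOR3 were high and SOR1 and SOR4 low, so the spread ran within the groups. Over the 8 libraries the median correlation between pairs of the 69 genes with 1000 counts or more was 0.66, and 94.6% of the pairs were above 0, while the median over pairs of 11630 other genes in that range of counts was 0.0066. These correlations share the same 8 libraries and describe them only.

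A like split of the libraries was found outside the olfactory receptors. Summed levels of the vomeronasal receptor family Vmn1r were 215, 195, 191 and 199 CPM in HC1 to HC4 and 175, 215, 219 and 166 CPM in SOR1 to SOR4. Those of the family Vmn2r were 245, 217, 212 and 223 CPM in HC1 to HC4 and 194, 243, 238 and 191 CPM in SOR1 to SOR4. In both families HC1, SOR2 and SOR3 were the 3 highest libraries and SOR1 and SOR4 the lowest. Genes of the annotation class TEC, which await experimental checks, summed to 7704, 7034, 6969 and 6988 CPM in HC1 to HC4 and to 6363, 7985, 7786 and 6304 CPM in SOR1 to SOR4. Processed pseudogenes summed to 4144, 3931, 3858 and 3870 CPM in HC1 to HC4 and to 3642, 4219, 4024 and 3520 CPM in SOR1 to SOR4. Among the 15582 other protein-coding genes tested, the median deviation of a library from the mean of all 8 stayed between -0.016 and 0.024 on the log2(CPM + 0.1) scale. For tested long non-coding (lincRNA) genes it was 0.072, 0.018, 0.036 and 0.038 in HC1 to HC4 and -0.129, 0.068, 0.047 and -0.09 in SOR1 to SOR4. Their summed level was not high in HC1 (21201 CPM, HC2 21250 and HC3 21278 CPM). Other properties of the libraries were looked at after the pattern was seen. The share of counts on genes of the mitochondrial chromosome was 4.92%, 5.69%, 5.63% and 5.64% in HC1 to HC4 and 5.43%, 5.16%, 5.25% and 5.6% in SOR1 to SOR4, so that HC1, SOR2 and SOR3 had the 3 lowest shares. The share on *Rn7s1* and *Rn7s2*, the genes of an abundant small RNA, was 13.2%, 9.8%, 8.09% and 11.2% in HC1 to HC4 and 7.92%, 11.6%, 10.9% and 10.8% in SOR1 to SOR4, highest in HC1 and SOR2 and lowest in SOR1. The total count was 55367680, 71412170, 54934184 and 81525977 in HC1 to HC4 and 72070472, 56153783, 65320932 and 51406011 in SOR1 to SOR4. The part of these properties in the pattern was not tested.

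**Figure D2:**
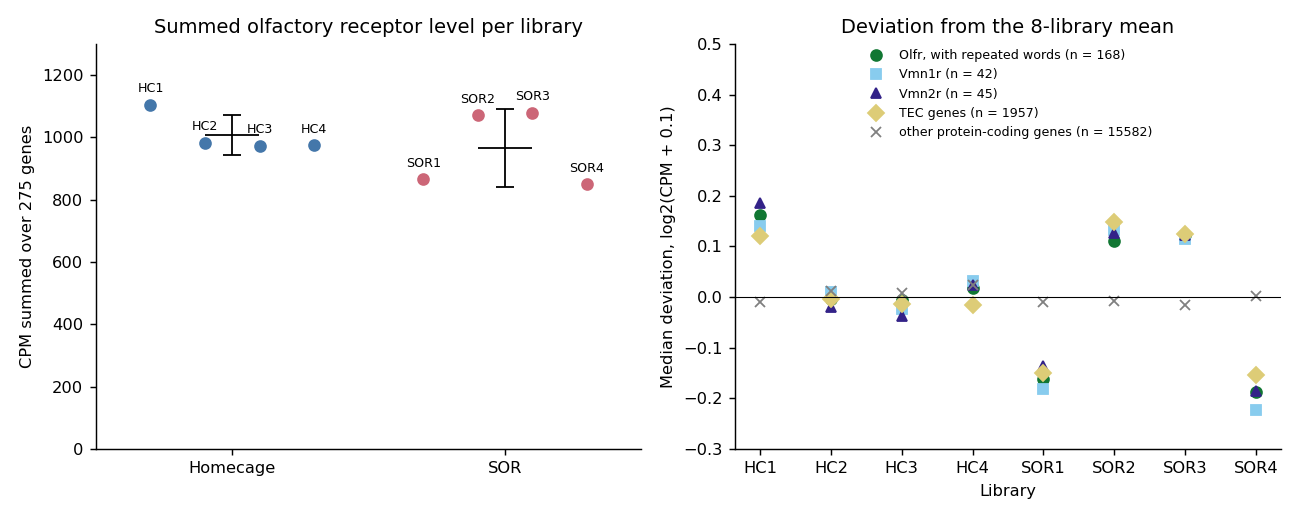
Left, CPM summed over the 275 olfactory receptor genes in each library (points), with the mean and SD of each group (n = 4); right, the median deviation of a library from the mean of all 8 on the log2(CPM + 0.1) scale, for tested olfactory receptor genes with repeated words, vomeronasal receptor genes, TEC genes and other protein-coding genes. HC1, SOR2 and SOR3 lie above 0 and SOR1 and SOR4 below it in all sets but the other protein-coding genes.

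The exons of the abundant receptor genes held repeated sequence. To describe this, every exon was read in words of 30 bases from GRCm38, and the copies of each word were counted in the genome on both strands. A word with 100 copies or more was called repeated, and interspersed repeats left by transposons are the usual source of such words in mammalian genomes. Repeated words were found in 240 of the 275 genes (87.3%), in 48.7% of the 273 genes above 0 but under 20 counts and in 24.4% of the 859 genes at 0. None of the 275 genes had one within the coding sequence. Their median coding length was 939 bases, against 939 and 936 in the other classes, whereas their exons were longer in all, with a median of 4050 bases against 2812 and 1920. Bases that the reference marks as repeats made up 27.8%, 15.3% and 12.3% of the exons.

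One word was shared by many of these genes, and it is printed with the words of *Olfr90* and *Olfr986* and with the first coding bases of *Olfr1336* and *Olfr365*, to show what was repeated and what was not. All are from GRCm38, 5′ to 3′ on the strand of the gene, and capitals mark bases inside repeated words.
Olfr1336, non-coding exon, chr7:6462829-6462858, plus strand: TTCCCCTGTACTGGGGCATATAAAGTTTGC
Olfr539, non-coding exon, chr7:140678544-140678573, plus strand: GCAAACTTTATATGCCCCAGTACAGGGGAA
Olfr986, non-coding exon, chr9:40189940-40189969, plus strand: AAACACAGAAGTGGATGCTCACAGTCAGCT
Olfr90, non-coding exon, chr17:37084423-37084452, minus strand: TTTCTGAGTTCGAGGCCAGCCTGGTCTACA
Olfr1336, start of the coding sequence, chr7:6460511-6460540, plus strand: atggagaagtcacttgagttgggcaatgtg
Olfr365, start of the coding sequence, chr2:37201243-37201272, plus strand: atgaacaaccacagcagcagcagcagcagc

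The word of *Olfr1336* had 34743 copies in the genome and stood in the transcripts of 53 genes outside the family. It was the most copied word also in *Olfr365*, *Olfr639*, *Olfr635* and *Olfr1247*, and 19 of the 275 genes held it on their own strand. The word of *Olfr539* is its reverse complement, which 17 of the genes held. The words of *Olfr986* and *Olfr90* had 31902 and 36898 copies, and the latter stood in the transcripts of 431 genes outside the family. The first coding bases of *Olfr1336* and of *Olfr365* had 1 copy each, that is, their own.

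The share of genes detected climbed with the number of repeated words. Among 824 receptor genes without such a word, 4.25% were among the 275, and the share was 20.1% of the 394 genes with 1 to 99 words, 77.3% of the 110 with 100 to 299, 95.5% of the 67 with 300 to 999 and 100% of the 12 with 1000 or more. All 69 genes with 1000 counts or more had repeated words. Over the 275 genes, Spearman's rho between the summed count and the number of repeated words was 0.75, as a description across genes, which are not independent. It was 0.41 for exonic length, and among the 532 receptor genes with exons of 2 to 4 kb it was 0.54 for repeated words and 0.16 for length. How much of the counts came from reads of these stretches could not be read from the table and was not tested.

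**Figure D3:**
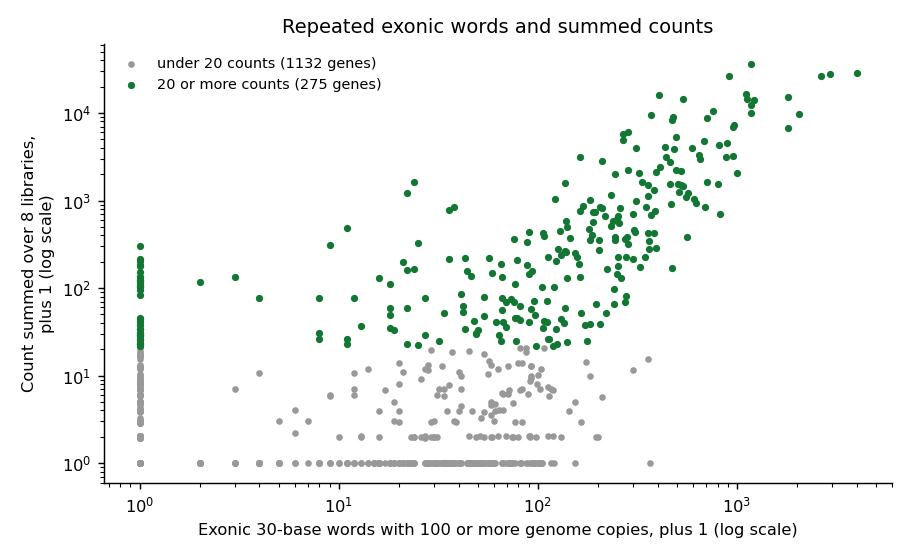
Count summed over the 8 libraries against the number of exonic 30-base words with 100 or more genome copies, both plus 1 and on log scales, for the 1407 olfactory receptor genes; each point is 1 gene. Above 300 repeated words nearly all genes reached 20 counts, and the 35 genes of the left column above the threshold had no repeated word.

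In 35 of the 275 genes no repeated word was found, and their counts were lower, with a median sum of 82.2 against 312 in the other 240. They are named here by this property, after their values were seen. The highest was *Olfr692* on chromosome 7, with 34.5, 38.4, 35.2 and 36.7 counts in HC1 to HC4 and 43.4, 36.1, 44.3 and 31.3 counts in SOR1 to SOR4. In *Olfr558* every exonic word was single in the genome, and it had 15.4, 27.1, 27 and 23.5 counts in HC1 to HC4 and 24.5, 19.6, 24.6 and 16.8 counts in SOR1 to SOR4. Its exons overlap those of *Gm45688* on the other strand. In both genes the libraries of the groups overlapped, and the summed level of all 35 genes was 6.4 ± 0.721 CPM without training and 5.76 ± 0.409 CPM after SOR (SD, n = 4 each).

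No tested olfactory receptor gene passed the threshold between SOR and homecage mice. Enough counts for edgeR's quasi-likelihood test were found in 183 of the 275 genes, and the other 92 were too low. At an adjusted p under 0.05, 0 of the 183 were called, where 0.359% of all 22018 genes tested were called (79 genes). At an unadjusted p under 0.05 there were 4 of 183 genes (2.19%), against 9.91% of all genes tested. DESeq2 gave 2 such genes (1.09%, all genes 9.96%) and limma-voom 6 (3.28%, all genes 10.5%). Both called 0 of the receptor genes after adjustment, but DESeq2 gave no adjusted p for *Olfr1344* and *Olfr317*. Likelihood ratio fits with 2 or 3 RUVs factors, which remove variation estimated among replicates, were the exception. Each called 2 of the 183 genes, *Olfr1344* and *Olfr317*. These fits called 444 and 466 of all 22018 genes tested. The likelihood ratio test called 189 without factors and 276 with 1 factor, and the quasi-likelihood test called 79.

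The estimates were narrow where counts were high. Among the 69 genes with 1000 counts or more the log2 fold changes, SOR over homecage, ran from -0.32 (*Olfr656*) to 0.17 (*Olfr975*), with a median standard error of 0.12. Among the 10 highest genes, the largest size was that of *Olfr539*, with a log2 fold change of -0.14 ± 0.09 (SE, adjusted p = 0.677 by edgeR), and *Olfr1336* had -0.08 ± 0.09 (SE, adjusted p = 0.83).

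**Figure D4:**
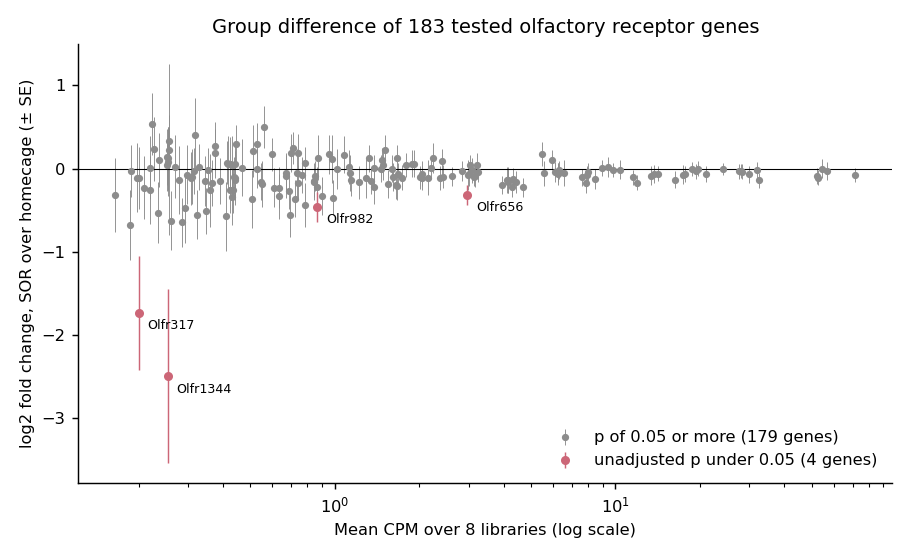
log2 fold change of SOR over homecage mice with its standard error against the mean CPM (log scale), for the 183 tested olfactory receptor genes; each point is 1 gene, and the 4 genes with an unadjusted p under 0.05 are named. Above 1 CPM the points lie close to 0, and the widest values, of Olfr1344 and Olfr317, belong to genes with 133 and 102 counts in sum.

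The fold changes leaned to lower values in SOR mice: 130 of the 183 genes (71%) were below 0, against 56.2% of all genes tested, and the median was -0.07 against -0.02. The size of this lean varied with the library left out. Without SOR1 the median was -0.02, without SOR4 -0.02 and without HC1 -0.02, near the median of all genes tested in each of these fits. Without SOR2 or SOR3 it was -0.12, and without HC2, HC3 or HC4 it was -0.08, -0.08 and -0.07. Leaving out the lowest SOR libraries or the highest homecage library is bound to raise this median, and the cause of the lean was not tested. The summed level averaged 1009 ± 64 CPM without training and 967 ± 126 CPM after SOR (SD, n = 4 each), a ratio of 0.958 that ran from 0.921 to 0.997 as single libraries were left out. The difference of the group means was smaller than either SD.

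*Olfr656*, which lies at chr7:104613955-104621603 on the plus strand, had the smallest adjusted p of the 183 genes. Its level was 3.08, 3.39, 3.4 and 3.26 CPM in HC1 to HC4 and 2.69, 2.66, 2.9 and 2.28 CPM in SOR1 to SOR4. All SOR libraries were below all homecage libraries, SOR2 and SOR3 among them, in which most receptor genes were high. The log2 fold change was -0.32 ± 0.12 (SE, p = 0.0199, adjusted p = 0.389 by edgeR's quasi-likelihood test), and the exact two-sided permutation test gave p = 0.0286, the smallest that 4 against 4 allow. Any gene whose groups do not overlap gives this permutation p, so it restates the order of the libraries and is no further evidence. The gene was named partly for that order and for its small p. The exons of *Olfr656* held 357 repeated words.

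*Olfr982* on chromosome 9 showed a like order, with 0.846, 0.975, 1.1 and 1.07 CPM in HC1 to HC4 and 0.766, 0.74, 0.818 and 0.597 CPM in SOR1 to SOR4. Its groups did not overlap, and its log2 fold change was -0.46 ± 0.18 (SE, adjusted p = 0.432 by edgeR). *Olfr718-ps1*, a gene on chromosome 5 annotated as protein coding despite its name, had 4.9, 4.39, 4.29 and 4.92 CPM in HC1 to HC4 and 3.46, 4.02, 4.43 and 3.9 CPM in SOR1 to SOR4. Its groups overlapped through SOR3, with a log2 fold change of -0.23 ± 0.11 (SE, adjusted p = 0.547 by edgeR).

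Over all 275 genes the groups did not overlap in 8 (2.91%), against 6.37% of the 26387 genes of the table with 20 counts or more. SOR was the lower group in 7 of them (*Olfr656*, *Olfr982*, *Olfr1226*, *Olfr1419*, *Olfr392*, *Olfr1348* and *Olfr133*) and the higher in *Olfr1124*. In *Olfr1226* the levels were 0.775, 0.768, 0.977 and 0.764 CPM in HC1 to HC4 and 0.314, 0.578, 0.74 and 0.63 CPM in SOR1 to SOR4. The gap between its groups was thus 0.764 against 0.74 CPM, and its adjusted p was 0.513 by edgeR. In *Olfr1124* the counts were 1.9, 3.51, 1.05 and 1.37 in HC1 to HC4 and 5.22, 4.8, 10.1 and 4.89 in SOR1 to SOR4. The remaining 4 genes, with 69.2 counts in sum or fewer, were too low for the fit, as was *Olfr1124*. Of the exonic words of *Olfr1348*, 15.7% stood in the transcript of *Olfr1347*, a receptor gene on the same chromosome. Summed, these genes gave 0.0381 to 0.144 CPM in the homecage libraries and 0.0302 to 0.149 CPM in the SOR libraries. The groups of this sum overlapped.

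The widest fold change belonged to *Olfr1344*, at chr7:6438688-6442161 on the plus strand. It had 8.03, 40, 44.6 and 20.6 counts in HC1 to HC4, 20.1 in SOR1 and 0 in SOR2, SOR3 and SOR4. The groups overlapped, since SOR1 (0.27 CPM) lay above HC1 (0.146 CPM) and HC4 (0.259 CPM). Its log2 fold change was -2.49 ± 1.04 (SE, p = 0.0418, adjusted p = 0.481 by edgeR's quasi-likelihood test), and the exact two-sided permutation test gave p = 0.0857. With 2 or 3 RUVs factors the likelihood ratio test called it, at adjusted p = 5.82e-10 and 3.78e-09. Without SOR1, when SOR was at 0 in each library left, the adjusted p was 0.0952. The paper, whose bulk analysis used edgeR with RUVs factors, shows *Olfr1344* among its top bulk RNA-seq genes.

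Of the 2655 exonic bases of *Olfr1344*, 1934 also belong to *Gm20715*, a gene annotated as protein coding on the same strand, and 72.5% of its exonic words stood in the transcript of that gene. *Gm20715* had 51.8, 33.4, 23.8 and 73.9 counts in HC1 to HC4 and 48.3, 56.6, 71.4 and 59 counts in SOR1 to SOR4. It was lowest in HC2 and HC3, where *Olfr1344* was highest. Summed, both genes gave 1.09, 1.03, 1.22 and 1.19 CPM in HC1 to HC4 and 0.918, 1.02, 1.1 and 1.16 CPM in SOR1 to SOR4. The groups overlapped. When the counts of both genes were added before the fit, an alternative chosen after seeing the data, the log2 fold change was -0.11 ± 0.16 (SE, adjusted p = 0.87 by edgeR's quasi-likelihood test). How reads in the shared bases were divided between these genes is not given in the sources used here, and the value of *Olfr1344* alone is uncertain to that extent.

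**Figure D5:**
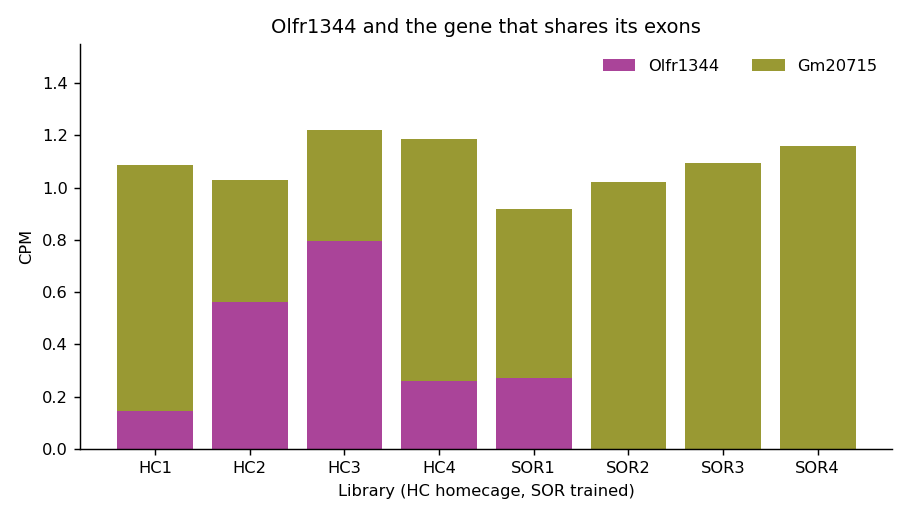
CPM of Olfr1344 (lower part of each bar) and Gm20715 (upper part) in each of the 8 libraries. The lower part varies from 0 to 0.796 CPM, while the whole bar stays between 0.918 and 1.22 CPM.

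*Olfr317* on chromosome 11 had 6.17, 26, 27.5 and 19.8 counts in HC1 to HC4 and 0, 8.45, 11.5 and 2.87 counts in SOR1 to SOR4. HC1 lay below SOR2 and SOR3, and the log2 fold change was -1.73 ± 0.69 (SE, adjusted p = 0.439 by edgeR's quasi-likelihood test). Its adjusted p was 0.00302 and 0.00515 in the likelihood ratio fits with 2 and 3 RUVs factors. Of its exonic words, 34.4% were not single in the genome, and 32% stood in the transcript of *Olfr322*, a receptor gene on the same chromosome with 9.92 counts in sum. Exons shared with a gene of another family on the same strand were found in 8 of the 275 genes, and 7 overlapped one on the other strand.

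The machinery that serves olfactory receptors in the nose was partly present. In a list of 17 signalling and transport genes, 14 were tested with edgeR's quasi-likelihood test. None was called, and 3 had an unadjusted p under 0.05 (21.4%), where 0.359% and 9.91% of all genes tested did so. *Gnal*, which encodes the alpha subunit of Golf, had a mean of 112 CPM without training and of 109 CPM after SOR, and *Adcy3*, the adenylate cyclase, had 34.5 and 36.1 CPM. Both are known from many brain neurons too. The channel subunits *Cnga4* (0.683 and 0.682 CPM), *Cngb1* (0.802 and 0.604 CPM) and *Cnga2* (0.0989 and 0.131 CPM) were low, as were the receptor transporters *Rtp1* (0.0498 and 0.0945 CPM) and *Rtp2* (0.22 and 0.116 CPM). *Pde1c*, a phosphodiesterase, had the smallest p of the list, with a log2 fold change of -0.38 (adjusted p = 0.202 by edgeR), and it was called with DESeq2 and with 2 and 3 RUVs factors. Its adjusted p ran from 0.0267 to 0.406 over the other settings and the fits without 1 library, with a negative log2 fold change in each. *Slc24a4*, an ion exchanger, had 0.23 (adjusted p = 0.403). *Arrb2*, an arrestin, had -0.16 (adjusted p = 0.472).

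Among 11 genes known for the choice of a receptor in sensory neurons, all were tested and none was called by the same test. *Lhx2* and *Ldb1*, whose products bind receptor enhancers, had log2 fold changes of 0.07 and 0.01. Markers of mature olfactory sensory neurons were low: the 8 genes summed to between 1.93 and 3.28 CPM over the libraries, and none of the 3 tested was called. Singly they ran from *S100a5* (0.0043 CPM without training and 0.0266 CPM after SOR) to *Stoml3* (0.859 and 0.909 CPM). The median level of the 275 receptor genes was 0.429 CPM. *Omp*, the marker protein of mature olfactory sensory neurons, stood at 0.354 CPM without training and at 0.361 CPM after SOR. Of 4 markers of supporting cells and glands, *Obp1a* and *Obp1b* were at 0 in every library, and the 4 together stayed at or below 0.25 CPM. Some genes stand in more than 1 of these lists.

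Other chemoreceptor families were detected in part as well. A summed count of 20 was reached by 52 of 321 Vmn1r genes (16.2%) and 61 of 239 Vmn2r genes (25.5%), which serve the vomeronasal organ, by 4 of 40 Tas2r genes for bitter taste, by 2 of 3 Tas1r genes for sweet and savoury taste and by 0 of 16 trace amine receptor genes. Of the olfactory receptor genes, the share was 19.5%. Tested were 42 Vmn1r, 45 Vmn2r, 1 Tas2r, 2 Tas1r and 0 trace amine receptor genes. None was called, where 0.359% of all genes tested were called.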

How the data were processed

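Bulk RNA-seq of dorsal hippocampus was used from 4 homecage and 4 SOR mice, with groups taken from the sample titles. The methods name a total RNA kit with ribosomal depletion, the labels polyA RNA. Per the methods, reads of 150 bases were processed in bcbio-nextgen with STAR and featureCounts against mm10. The authors deposited estimated counts for each gene, summarized by tximport and not normalized. The quantifier behind them is not given in the sources used here. How reads that match several genes were counted is not given either, and counts of overlapping or repeated genes depend on it.

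The table holds 54532 genes, of which 54495 have a GENCODE M21 record. Members and lists were chosen with earlier results of these data known. Counts were rounded, filtered with filterByExpr and scaled by upper-quartile factors, and 22018 genes were tested with the quasi-likelihood test of edgeR 4.0.16 in R 4.3.3 (glmQLFit, robust), two-sided, and p was adjusted by Benjamini-Hochberg over these genes. The study's RUVs factors have no stated number, so none was used. The SE is the log2 fold change over the square root of F. For a single gene, the exact two-sided permutation test took the difference in mean log2(CPM + 0.1) over 70 assignments. Alternatives were other scaling (TMM, RLE, library size), other filters, the likelihood ratio test, DESeq2 1.42.0, limma 3.58.1 (voom), 1 to 3 RUVs factors, a replicate block, each library left out and, added later, *Olfr1344* and *Gm20715* summed. A value within 0.005 of a whole number was called whole. The fits and the counting of words were tested on simulated data. Replicates differed by 11.9 to 54.1 chi-square per degree of freedom, so none was a duplicate library. Same-numbered mice did not deviate together (correlations of -0.0856 to 0.101), and the numbers were not treated as pairs.

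Named genes were the 10 highest sums, those with an unadjusted p under 0.05, those called in any alternative, those whose groups do not overlap, the 3 on either side of the threshold, the 5 with the largest share in 1 library, those the study names (*Olfr1344*, *Olfr656* and *Olfr718-ps1*) and list genes. Other names were chosen after their values were seen. Spatial, single-nucleus and ATAC data were not analysed here. Python 3.11.15, pandas 2.3.3, numpy 2.4.6 and numba 0.67.0 were used.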

Additional observations from a re-analysis of the deposited data

Results flagged for a closer look

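Values of single mice that lay far from the other 3 of their group were looked for in 62 groups of 4 values by Dixon's criterion. Chance meets it in about 5% of groups of normal values, and 9 were found. Some genes looked at, *Olfr1512* among them, were named for a large share in 1 library, and others lay near 0. The 5% does not hold for these, so the number found is a description only. In homecage mice HC1 stood apart in the summed olfactory receptor level (1105 CPM, others 974 to 982), in *Olfr1336* (81.2 CPM, others 70.8 to 71.5), in *Olfr639* (58.6 CPM, others 52.1 to 53) and in *Olfr1247* (32.9 CPM, others 26.9 to 27.9). These values share the library pattern of the abundant receptor genes and are not independent of each other. HC1 also held the highest value of *Olfr1512* (0.297 CPM, others 0 to 0.025). HC3 was high in *Olfr1226* (0.977 CPM, others 0.764 to 0.775) and in *Olfr133* (0.0935 CPM, others 0.0661 to 0.0706), and the latter rests on about 5 counts a library. SOR1 was high in *Olfr1344* (0.27 CPM, the other SOR mice 0) and in *Olfr553* (0.0364 CPM, others 0.0132 to 0.0169, under 3 counts each). Whether a property of these libraries or of these mice set the values was not tested.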

How the results depend on the processing

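The count of 275 genes became 315 at a threshold of 10, 213 at a threshold of 50, and 258 to 267 with a library left out. The count of 0 genes past an adjusted p of 0.05 was kept under each other scaling, filter, test and left-out library. It was also kept under the replicate block and with a fold change of 1.4. It became 2 with 2 RUVs factors and 2 with 3 (*Olfr1344* and *Olfr317*). DESeq2 gave no adjusted p for these 2 genes. The fits with 2 and 3 RUVs factors called 444 and 466 of all 22018 genes tested. The same likelihood ratio test called 189 without factors and 276 with 1 factor, and the quasi-likelihood test called 79. The cause was not tested. Without a filter 275 genes were tested. The 4 genes at an unadjusted p under 0.05 became 9 of 252 with more than 5 counts in 2 samples and 9 of 275 without a filter. These shares were 3.57% and 3.27%, against 9.08% and 7.44% of all genes tested. Of 183 genes the number was 2 with DESeq2, 7 with 2 RUVs factors and 3 with the replicate block, or 1.09%, 3.83% and 1.64%. The shares of all genes tested were 9.96%, 11% and 9.12%. With a library left out the number ran from 1 (without SOR4) to 7 (without SOR1 or SOR3). These shares were 0.505%, 3.66% and 3.7%, against 10.1%, 9.61% and 10.2% of all genes tested. The block changed no call among the receptor and list genes. Of all 22018 genes tested it called 46, against 79 without it. The 8 genes whose groups did not overlap became 11 to 19 with a library left out, where fewer values have to be parted. The share over all genes with a library left out is not given here. None of the list genes was called except *Pde1c*, 1 gene each with DESeq2, 2 RUVs factors and 3 RUVs factors. Those settings called 435, 444 and 466 of all genes tested.

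Fold changes near 0 changed sign. That of *Olfr46* was 0.018 with TMM factors, 0.019 with RLE factors, 0.0054 with library size only, 0.0045 with more than 5 counts in 2 samples, 0.019 with DESeq2, 0.012 with 2 and 0.013 with 3 RUVs factors, and -0.097 to 0.076 with a library left out. With a library left out the range was -0.101 to 0.037 for *Olfr1307*, -0.097 to 0.047 for *Olfr986*, -0.11 to 0.036 for *Olfr1247*, -0.094 to 0.025 for *Olfr90* and, as a difference of log2(CPM + 0.1), -0.32 to 0.34 for *Olfr1512*. *Olfr1344* ran from -7.78 (without SOR1, SOR then at 0) to -2.07. DESeq2 gave no adjusted p for *Olfr1344* and *Olfr317*. The exact p of the non-overlapping genes outside the fit, 0.0286 with all 8 mice, was 0.0571 in part of the fits with 7. With all 8 mice this p follows from the groups not overlapping, for which the genes were named, and is no further evidence. Depth limits what can be said of the 92 untested genes, whose sums lay at 124 counts or fewer.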
